A study of Mus musculus with 6 samples.

Results

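The genes described here encode the proteins of the cytosolic ribosome in the E15.5 mouse ovary. They were chosen by symbol alone, as every gene named Rpl or Rps followed by a number or by p0, p1 or p2, with pseudogenes left out. The rule found 84 of the 35974 gene names, 52 of the large subunit and 32 of the small subunit, with 223 of the 114412 assembled transcripts. Poly(A) RNA of ovary pools was sequenced in 3 control and 3 PB pools from C57BL/6J embryos. In the PB group the pregnant females were given panobinostat (PB), an inhibitor of histone deacetylases, by gavage at 5 mg/kg from E6.5 to E15.5. Control females received the vehicle, DMSO and water, over the same days. By the labels the dose was daily, whereas by the methods of the study it was given every other day. The number of ovaries in a pool is stated as 4, as 6 to 8 and as a higher minimum in different places. The design text describes all 6 libraries, the controls among them, as coming from exposed mice, so that the groups rest on the names of the samples. The libraries held 97165644 to 125985399 counts, and p-values measure only the spread between these pools.

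Ribosomal proteins are needed in nearly equal amounts, since each ribosome carries a single copy of most of them. Their mRNAs begin with a C followed by a run of pyrimidines, the terminal oligopyrimidine (TOP) motif, through which mTOR and LARP1 adjust their translation. In growing germ cells and in the dividing somatic cells of the gonad these mRNAs are among the most abundant. Many of the genes also carry small nucleolar RNAs (snoRNAs) in their introns, and nearly all have processed pseudogenes elsewhere in the genome.

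The start sites of the genes were searched for the TOP motif, which the symbol rule did not use. RefSeq start-site windows (GRCm38.p6, the mm10 build of the files) were found for 63 of the 84 members, with 75 windows of 300 bases. A C at the annotated start followed by at least 4 C or T was present in 14 of the 75 windows (18.7%), against 2.51% of the 32851 windows of all genes. In the following windows of 30 bases before and 25 bases from the start, read 5′ to 3′, capitals mark the run of pyrimidines that opens the mRNA.
Rpl15: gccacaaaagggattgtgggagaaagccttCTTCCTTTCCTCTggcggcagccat
Rps10: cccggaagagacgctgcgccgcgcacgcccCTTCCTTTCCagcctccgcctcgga
Rps18: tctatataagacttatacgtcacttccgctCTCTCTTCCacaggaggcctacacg
Rps6: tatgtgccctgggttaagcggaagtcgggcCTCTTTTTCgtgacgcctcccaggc
Rps27: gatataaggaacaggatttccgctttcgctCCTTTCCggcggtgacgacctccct
Rplp2: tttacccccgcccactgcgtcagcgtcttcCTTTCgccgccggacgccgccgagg
Rpl32l: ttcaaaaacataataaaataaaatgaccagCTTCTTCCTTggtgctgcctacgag
These windows were chosen to show the longest run (Rpl15, 13 bases), a short run (Rplp2, 5 bases), the start of an abundant mRNA (Rps18), the start of the most evenly measured member (Rps6), the start of a gene with an expressed paralogue (Rps27), a start that also holds the letters CCGGAAG (Rps10) and the start of the member with the lowest count (Rpl32l). They lie at chr14:18270962-18271016 for Rpl15 and chr17:27635220-27635274 for Rps10. The windows of Rps18 and Rps6 are at chr17:33955641-33955695 and chr4:86857343-86857397. Those of Rps27 and Rplp2 are at chr3:90213624-90213678 and chr7:141447621-141447675, and that of Rpl32l is at chr10:20208409-20208463. Rpl14, Rplp2, Rpl28, Rpl32l, Rpl35a, Rpl38 and Rps21 lie on the plus strand and the other 7 genes of the 14, Rpl15, Rpl35, Rps6, Rps10, Rps15a, Rps18 and Rps27, on the minus strand. With the search widened to a C followed by 5 C or T within 20 bases of the start, 58.7% of the member windows and 29.9% of all windows held a match.

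Other short motifs were searched on both strands of the 300 bases. CCGGAAG, the core bound by ETS factors, was found in 34.7% of the member windows, from 25 genes, and in 8.86% of all windows. AAGATGGC, the core bound by YY1, was found in 10.7% against 2.75%. GGGCGG, the GC box, was found in 58.7% against 35.7%, and CACGTG, the E-box that MYC can bind, in 10.7% against 7.15%. TATAAA was found in 10.7% of the member windows and 13.6% of all windows. A match is a run of letters in the window and not a measured binding site.

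All 84 members were detected, and their levels spanned a wide range. Per length and scaled to a common total (TPM), computed from the counts and the exon lengths of the assembly, the 76 conventional members had a median of 1245.5, with quartiles at 796.1 and 1775.6. The highest level was that of Rplp1, an acidic protein of the stalk that recruits elongation factors, with a mean of 3778.8 TPM over the 6 pools. It was followed by Rps14 (3492.2 TPM), Rps4x (2514.0 TPM), Rps18 (2449.0 TPM) and Rps26 (2260.2 TPM). Of the other members of the stalk, Rplp0 had 2055.6 TPM and Rplp2 had 1679.0 TPM. The lowest conventional members were Rpl29 (77.8 TPM), Rpl21 (78.0 TPM) and Rpl17 (107.5 TPM), which are also among the least evenly measured genes described below. A level per length follows the assembled model. The Rps20 transcript that holds most of its counts was assembled with 3446 bases, and Rps20 stood at 290.0 TPM.

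**Figure D1:**
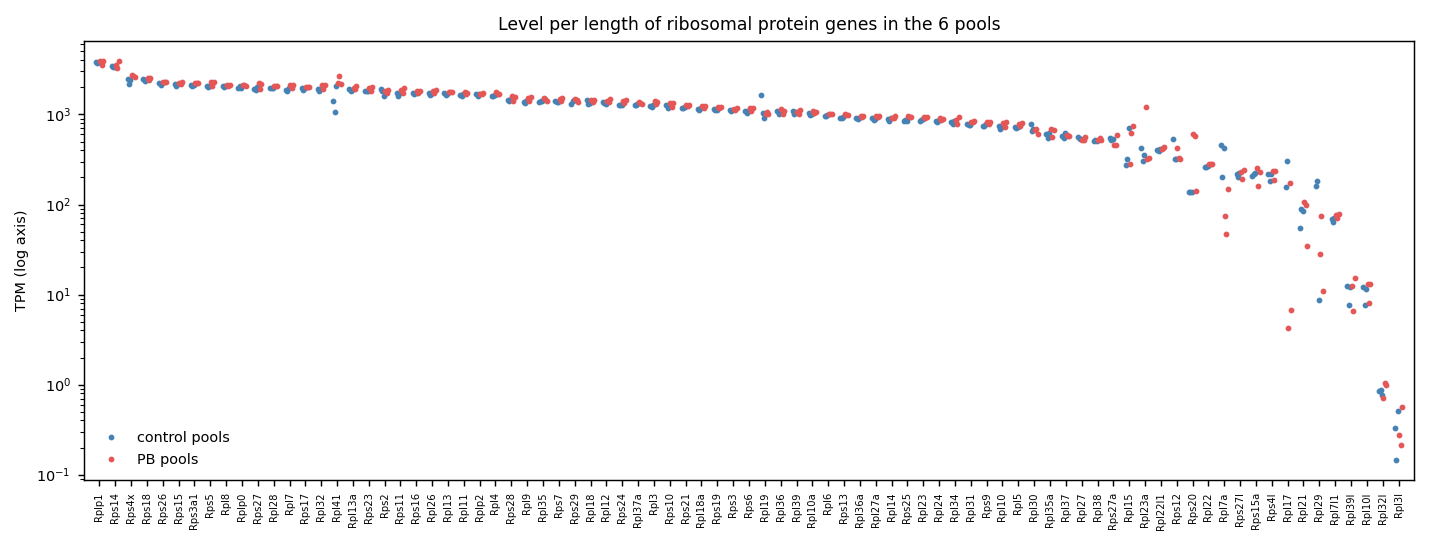
Level of 83 of the 84 ribosomal protein genes in TPM (log axis), with 1 point per pool, blue for the 3 control pools and red for the 3 PB pools, ordered by the mean. The quartiles of the conventional genes are 796.1 and 1775.6 TPM, and the paralogues Rpl10l, Rpl39l and Rpl3l and the gene Rpl32l lie far below them. Values of 0 are not drawn.

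Together the members took 5.12%, 5.20% and 5.05% of the gene counts in control pools 1 to 3 and 5.09%, 5.31% and 5.06% in PB pools 1 to 3. The mean share was 5.123% ± 0.0725 in controls and 5.154% ± 0.134 in PB (SD, n = 3), a difference smaller than the SD of either group. Wilson 95% intervals of these shares reached at most 0.0044 percentage points to either side, counting error only. The large subunit genes held 2.879% ± 0.0308 and 2.883% ± 0.101, and the small subunit genes 2.244% ± 0.0502 and 2.271% ± 0.0331.

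The direction of this difference depended on the denominator and the measure. Without the 10 most abundant other genes the share was 5.711% ± 0.16 in controls and 5.637% ± 0.0813 in PB. As a share of TPM it was 11.05%, 10.46% and 10.87% in controls and 11.44%, 11.26% and 11.45% in PB. Every PB pool lay above every control pool. TPM also changes the numerator, since each assembled transcript is divided by its own length. Rpl41 stood at 1421.6 and 1051.1 TPM in controls 1 and 2 and at 2044.1 to 2701.0 TPM in the other pools. Rpl19 went the other way, at 1662.1 TPM in control 1 and at most 1076.7 TPM elsewhere. The part of assembled lengths in the separation was not tested. The summed level of 8 red blood cell markers differed widely between controls, with 23998 CPM, 32602 CPM and 15356 CPM (CPM being counts relative to the library total, scaled between pools by TMM), against 20486, 18852 and 18950 CPM in the PB pools. All 8 of these markers had a lower mean in PB, the value nearest 0 being that of Hba-a1 (-0.090 ± 0.47) and the lowest that of Hba-a2, with a log2 fold change of -0.77 ± 0.28 (SE; edgeR adjusted p = 0.888). Control 2 had both the highest red blood cell sum and the lowest share of TPM, but by gene counts it had the highest share of the controls (5.195%). Control 3, with the lowest red blood cell sum, had a lower share of TPM (10.87%) than control 1 (11.05%). The part of red cells in these shares was not tested.

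**Figure D2:**
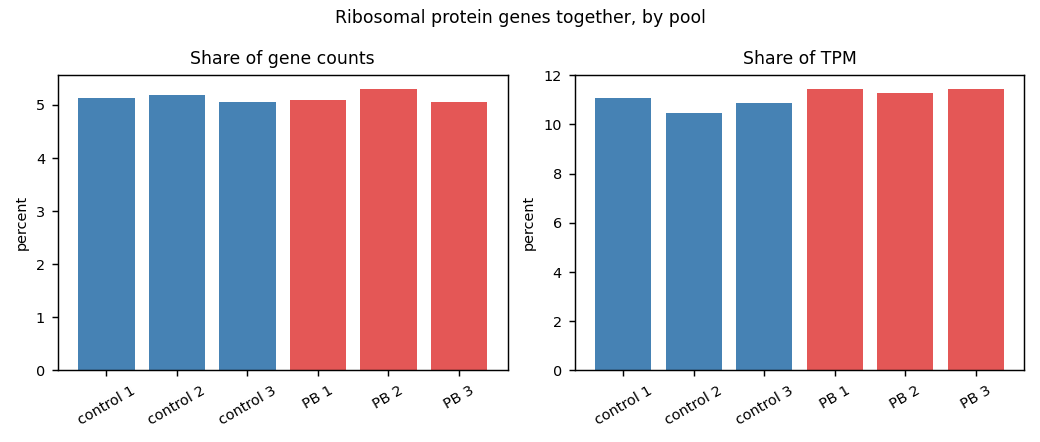
Share of all ribosomal protein genes together in each pool, as percent of gene counts (left) and as percent of TPM (right), with 1 bar per pool from 0. A share of TPM also follows the assembled lengths of the transcripts. On the left the groups overlap (5.05 to 5.20% and 5.06 to 5.31%); on the right the 3 PB pools, 11.26 to 11.45%, stand above the 3 control pools, 10.46 to 11.05%.

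The central comparison asked whether mRNA levels of ribosomal protein genes differed between PB-exposed and control ovaries. All 84 members passed the filter on low counts. In edgeR's quasi-likelihood test across 19435 genes, 0 of the 84 were called at an adjusted p of at most 0.05 and a change of at least 2-fold, and 0.0154% of all genes (3 genes) were. DESeq2's Wald test also called 0 members. At an unadjusted p under 0.05 edgeR gave 1 member, Rpl7a, where 4.46% of all genes passed, and DESeq2 gave 3. The lowest adjusted p of a member was 0.888. Without a pool in turn, edgeR gave between 0 members (without PB 1) and 4 members (without control 3) at an unadjusted p under 0.05, and none was called. The shares of all genes in the DESeq2 fit and in the fits without a pool are not given here. Those counts of members are therefore not read as a result.

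Within this, most members lay slightly below the control level. The log2 fold change, PB against control, was below 0 for 65 members and above 0 for 19, while 49.3% of all genes tested were below 0. The median over the members was -0.030, which is -2.09%, with quartiles at -0.061 and -0.0055. Over all genes tested the median was 0.002. Large and small subunit genes had like medians, -0.031 and -0.030. In 74 members (88.1%) the value was within 0.1 of 0, and 50.1% of all genes were.

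The lean toward lower values moved with a control pool. Of the 84 members, 55 had their highest level in control 2, and the 83 members without a value of 0 stood there at a median of 0.069 above their own mean on the log2 scale. In the other 5 pools this median was between -0.0341 (PB 1) and 0.015 (control 1). Without control 2 the median log2 fold change was -0.0052 with 48 members below 0, and without control 3 it was -0.062 with 71 members below 0. Scaled by total counts alone it was 0.0089 with 33 members below 0, on a scale where the median of all genes was 0.0403. Control 2 was also the pool with the highest red blood cell markers and the deepest library, and the part of either in this pattern was not tested.

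The genes were measured tightly enough to bound most differences. The 95% interval of the log2 fold change lay within 0.25 of 0, which is a change of 1.19-fold, for 68 of the 84 members (81.0%), and for 29.3% of all genes tested. Among genes with a mean of at least 100 CPM, 68.9% did so. The median SE of a member was 0.053, against 0.12 over all genes. The median coefficient of variation (CV) within a group was 3.69% over the members and 4.74% over genes of at least 100 CPM. Rps6, the ribosomal protein phosphorylated by S6 kinase, had the lowest CV, 1.04%, and was picked out after its values were seen. It measured 1026.1, 1045.3 and 1007.8 CPM in controls and 1026.3, 1021.4 and 1024.7 CPM in PB. The groups overlapped, and its log2 fold change was -0.0033 ± 0.043 (SE).

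**Figure D3:**
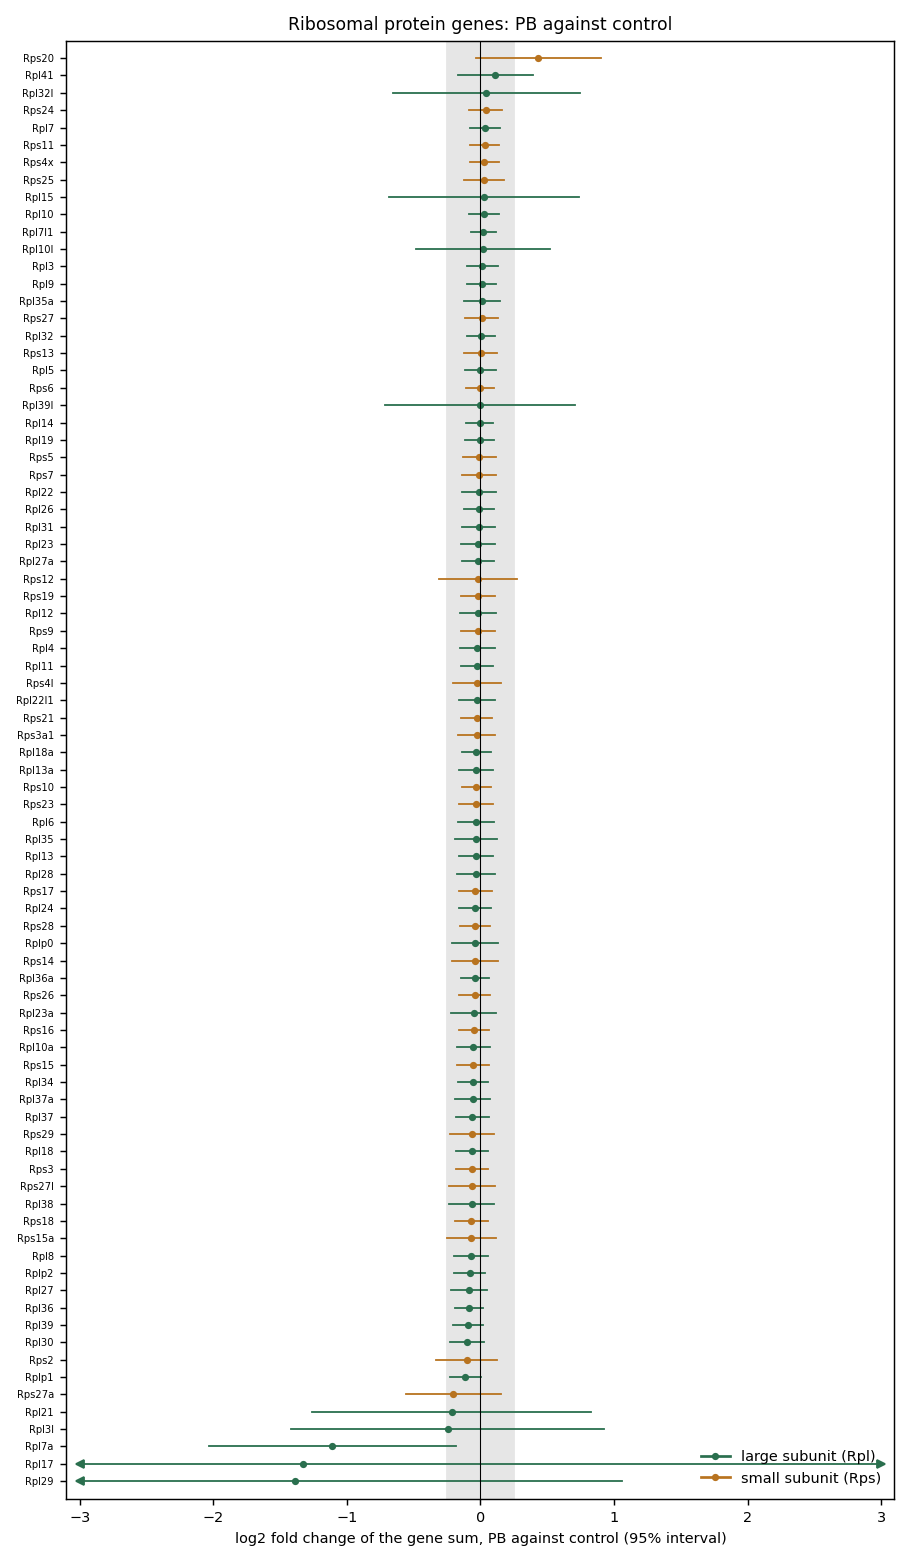
Log2 fold change of 83 of the 84 gene sums, PB against control, with its 95% interval from edgeR, green for large and orange for small subunit genes; the grey band spans 0.25 to either side of 0, and arrows mark intervals that leave the axis. In 68 genes the whole interval lies in the band, and the widest intervals belong to Rpl17 and Rpl29.

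Among the 16 members with a wider interval were Rpl7a, Rpl10l, Rpl15, Rpl17, Rpl21, Rpl29, Rpl32l, Rpl39l, Rpl3l, Rpl41, Rps2, Rps12, Rps15a, Rps20 and Rps27a. For these the data do not bound the difference to 1.19-fold.

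Groups of pools separated completely in 3 members. Rpl7a and Rplp1 were lower in every PB pool than in every control pool, where 5.61% of all genes were, and Rpl7l1 was higher, where 5.1% of all genes were. For Rpl7a, a large subunit protein whose introns hold snoRNAs (chr2:26910725-26913312), the levels were 184.6, 187.6 and 288.2 CPM in controls and 86.6, 57.5 and 162.3 CPM in PB. Its log2 fold change was -1.11 ± 0.39 (SE), with an edgeR p of 0.0257 and an adjusted p of 0.888. Rplp1 (chr9:61913283-61914510) measured 1206.6, 1265.8 and 1167.0 CPM in controls and 1122.2, 1115.7 and 1129.9 CPM in PB, a log2 fold change of -0.11 ± 0.050 (SE; edgeR adjusted p = 0.888). The PB pools of Rplp1 lay closer together than its controls. For Rpl7l1, an Rpl7-like gene, the values were 122.8, 122.8 and 120.9 CPM in controls and 122.8, 123.1 and 126.1 CPM in PB, so that the groups were separated by a margin that disappears in rounding, with a log2 fold change of 0.022 ± 0.038.

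The 3 stalk genes all had a lower mean in PB, none past the threshold. Rplp0, which anchors the stalk to the ribosome, measured 1818.9, 2040.2 and 1758.0 CPM in controls and 1787.5, 1902.9 and 1771.6 CPM in PB, a log2 fold change of -0.040 ± 0.072 that turned to 0.0002 with scaling by total counts. Control 2 was again the highest pool and the groups overlapped. Rplp2 measured 507.5, 524.8 and 487.4 CPM against 468.1, 494.6 and 476.2 CPM, a log2 fold change of -0.079 ± 0.049. Its PB pool 2 exceeded control 3, so the groups overlapped.

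Rpl37a, a zinc-finger protein of the large subunit, was the gene to which the study normalized mRNA levels in quantitative PCR. A region of the Rplp0 gene served the study as the background in its DNA methylation assay, and not as an mRNA reference. Rpl37a measured 504.0, 548.7 and 506.6 CPM in controls and 493.3, 520.1 and 484.0 CPM in PB. The groups overlapped, with a log2 fold change of -0.058 ± 0.055 and a 95% interval from -0.19 to 0.073. For the mRNA of Rplp0 the interval was -0.21 to 0.13. In TPM the direction was the opposite for both genes. Rpl37a measured 1267.0, 1283.1 and 1315.0 TPM in controls and 1357.6, 1329.0 and 1321.9 TPM in PB. Rplp0 measured 1972.9 to 2062.8 TPM in controls and 2091.9 to 2126.8 TPM in PB.

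Rpl5 and Rpl11, which bind 5S rRNA and can bind MDM2 when ribosome assembly is disturbed, were level between groups. Rpl5 measured 983.1, 1038.3 and 967.0 CPM in controls and 988.7, 1001.7 and 998.3 CPM in PB, with a log2 fold change of 0.0002 and a 95% interval from -0.11 to 0.12. The PB pools of Rpl5 all lay inside the range of the controls. Rpl11 measured 667.6, 703.7 and 658.8 CPM against 658.6, 684.8 and 650.8 CPM, a log2 fold change of -0.026 ± 0.049. Both signs turned under some scalings. Of the 4 genes of the surveillance pathway that they act on, Mdm2, Mdm4, Trp53 and Cdkn1a, 0 were called and 0 had an unadjusted p under 0.05 by edgeR. The extremes were Trp53 (log2 fold change -0.073 ± 0.057) and Mdm4 (0.41 ± 0.33). Cdkn1a, the growth-arrest target of p53, had 36.3 CPM ± 2.87 in controls and 36.1 CPM ± 5.60 in PB (SD, n = 3).

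The 4 X-linked members were Rps4x, Rpl10, Rpl36a and Rpl39. Rps4x, whose protein binds early in small subunit assembly, measured 1553.4, 1583.7 and 1533.2 CPM in controls and 1581.1, 1605.8 and 1576.6 CPM in PB, with a log2 fold change of 0.029 ± 0.045. The groups overlapped by control 2. Rpl10, the large subunit protein placed late in assembly, had 432.7 CPM ± 16.1 and 439.8 CPM ± 9.66, a log2 fold change of 0.024 ± 0.047. Rpl36a had 305.1 CPM ± 10.4 and 296.5 CPM ± 6.38. Rpl39, a small protein of the exit tunnel, measured 317.2, 316.0 and 300.6 CPM against 282.0, 290.2 and 304.2 CPM, which is a log2 fold change of -0.092 ± 0.047 (edgeR adjusted p = 0.888) and the largest of the 4. PB 3 lay within the range of the controls of Rpl39.

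The remaining highly expressed genes and the upper end of the fold changes were as close. Rps14 had 1394.2 CPM ± 78.8 in controls and 1355.7 CPM ± 98.3 in PB, Rps18 had 866.9 CPM ± 40.9 and 827.6 CPM ± 14.2, and Rps26 had 678.0 CPM ± 16.4 and 658.2 CPM ± 24.3. Rps24, with 723.8 CPM ± 34.5 and 744.7 CPM ± 12.3, and Rpl7, with 1200.9 CPM ± 35.0 and 1230.8 CPM ± 7.89, were among the 5 members with the highest log2 fold changes, 0.041 ± 0.052 and 0.036 ± 0.046. Each of these differences was smaller than the larger SD of its groups.

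The paralogues of ribosomal proteins are expressed from separate genes and several are known from germ cells or muscle. Rpl22l1 stood above its parent. Per length it reached 153.1% ± 1.6 of Rpl22 in controls and 151.0% ± 2.87 in PB (SD, n = 3). Rpl22l1 had 139.3 CPM ± 5.06 in controls and 136.7 CPM ± 7.48 in PB, and Rpl22 had 396.0 CPM ± 17.5 and 393.3 CPM ± 16.5, a longer mRNA. The other 6 paralogues lay below their parents. Rps27l, a target of p53, reached 11.1% ± 0.308 and 10.5% ± 0.563 of Rps27, which itself had 459.7 CPM ± 13.4 and 462.6 CPM ± 20.4. Rps27l had 77.1 CPM ± 0.907 and 73.6 CPM ± 6.70. Rps4l, an autosomal copy of Rps4x, reached 8.75% ± 0.319 and 8.22% ± 0.982 of its parent. Its only transcript is a non-coding RefSeq record of 1 exon and 941 bases, and reads shared with Rps4x could be counted with either gene. Rpl7l1 reached 3.63% ± 0.101 and 3.59% ± 0.067 of Rpl7. None of the 14 genes of the 7 pairs was called, and 0 had an unadjusted p under 0.05 by edgeR.

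Rpl3l, which replaces Rpl3 in heart and skeletal muscle, was at the edge of detection with 0.458, 0.232 and 0.573 CPM in controls and 0.272, 0.225 and 0.559 CPM in PB. The groups overlapped. Its parent Rpl3 measured 1205.0, 1255.0 and 1179.4 CPM against 1228.7, 1242.4 and 1202.6 CPM, so that per length Rpl3l was at 0.0264% and 0.0257% of it. Rpl32l, a gene at chr10:20208439-20209030, had the lowest mean CPM of all members, with 0.336, 0.377 and 0.297 CPM in controls and 0.262, 0.411 and 0.370 CPM in PB. By its name it is a copy of Rpl32, and reads from a near-identical copy could be counted with either gene.

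Rpl10l and Rpl39l, copies of the X-linked Rpl10 and Rpl39 that are known from spermatogenic cells, varied between pools in the same way. Rpl10l measured 8.30, 5.74 and 7.69 CPM in controls and 8.29, 5.46 and 8.28 CPM in PB. Rpl39l measured 6.63, 4.33 and 6.15 CPM in controls and 6.00, 3.51 and 7.52 CPM in PB. Both genes were lowest in PB 2 and next lowest in control 2, and the groups overlapped with log2 fold changes of 0.021 ± 0.21 and -0.0051 ± 0.30. The summed level of 10 germ cell markers had the same order at its lower end, with 1032.2, 774.9 and 1023.0 CPM in controls and 1046.1, 682.9 and 1108.4 CPM in PB. Singly, Ddx4, Dazl, Sycp3, Tex14, Mael and Stra8 had this order, and Kit, Pou5f1, Dppa3 and Rec8 did not. Rps4l, whose counts could include reads of Rps4x, followed the sum less strongly. It measured 140.2, 125.3 and 133.9 CPM against 136.5, 118.1 and 137.4 CPM. The parents Rpl10, Rpl39 and Rps4x did not have their lowest level in control 2 or PB 2. The order of the pools is a description, its relation to the germ cell share was not tested, and in pooled tissue fewer germ cells and less RNA per germ cell cannot be told apart.

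**Figure D4:**
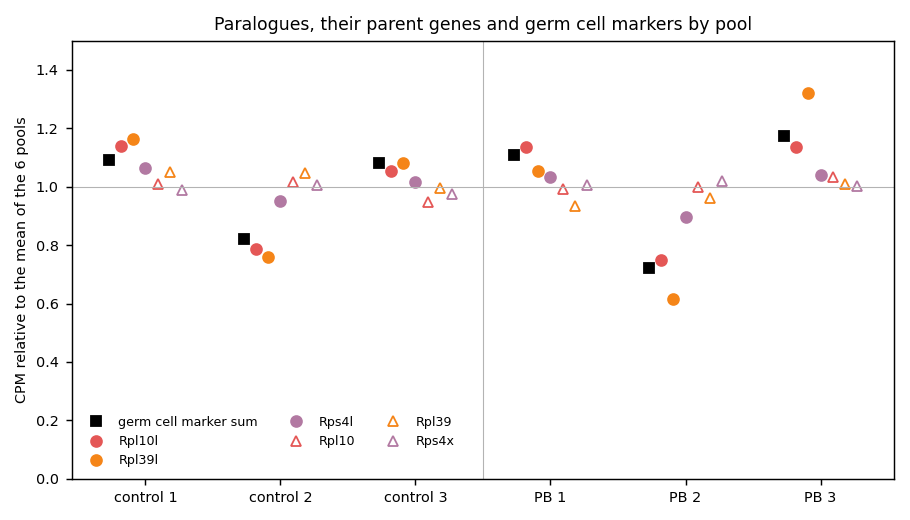
CPM of the paralogues Rpl10l, Rpl39l and Rps4l (filled circles), their X-linked parents Rpl10, Rpl39 and Rps4x (open triangles) and the sum of 10 germ cell markers (black squares), each divided by its mean over the 6 pools; 1 position per pool. The circles and squares fall together in control 2 and PB 2, where Rpl10l measured 5.74 and 5.46 CPM, while the triangles stay near 1.

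A few members differed between pools of the same group by far more than the rest. A CV above 20% was found in 8 members, Rpl17 (126.5%), Rpl29 (87.7%), Rpl3l (46.3%), Rpl21 (41.9%), Rpl7a (39.9%), Rpl15 (32.1%), Rpl39l (28.4%) and Rpl10l (20.3%). That is 9.52% of the members, against 28.8% of all genes tested and 4.4% of genes with a mean of at least 100 CPM. Rpl3l, Rpl39l and Rpl10l were also low in level, with control means of 0.421, 5.70 and 7.24 CPM. In several of the 8 members the counts of a locus moved between assembled transcripts, and in Rpl17 they moved out of the gene name altogether.

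Rpl17 is the clearest case. The sum of its transcripts was 0, 93.0 and 162.5 CPM in controls and 2.39, 95.6 and 3.88 CPM in PB. The locus also holds transcripts that the annotation of the assembly names after Snord58b, a snoRNA in an intron of Rpl17. Of these, MSTRG.8823.3 held 190.9 CPM in control 1 and 3.81 CPM in control 3, and MSTRG.8823.2 held 185.2 CPM in PB 1 and 196.9 CPM in PB 3 and was at 0 in all controls and in PB 2, and DESeq2's Wald test gave it an adjusted p of 2.09e-10. It did not pass the filter for edgeR. With these transcripts added, Rpl17 measured 195.3, 191.0 and 166.4 CPM in controls and 192.2, 206.0 and 204.1 CPM in PB. The CV over all pools was 113.7% by gene name and 7.38% with the added transcripts, and the log2 fold change was -1.33 ± 1.99 by name and 0.12 ± 0.070 with them. The second value is from an alternative chosen after the data were seen.

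Rps12, a small subunit protein and the host of Snora33, showed the same on a smaller scale. By name it measured 287.1, 273.8 and 253.1 CPM in controls and 320.2, 247.9 and 235.4 CPM in PB. With the transcripts named after Snora33 it measured 349.0, 392.5 and 351.6 CPM and 351.8, 375.0 and 343.4 CPM, and the CV over all pools was 5.28% in place of 11.5%. Neither sum differed between the groups beyond its error, with log2 fold changes of -0.019 ± 0.12 and -0.031 ± 0.064.

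The highest fold change among the members, that of Rps20, rested on a transcript of PB 1 and another of PB 2. By gene name Rps20 measured 323.7, 342.3 and 311.5 CPM in controls and 499.8, 518.6 and 302.8 CPM in PB, a log2 fold change of 0.43 ± 0.20 (edgeR adjusted p = 0.888). PB 3 lay below all controls. In the transcript counts, scaled by their own TMM factors, MSTRG.12195.1 held 193.2 CPM in PB 1 and at most 0.455 CPM elsewhere, and MSTRG.12195.2 held 187.3 CPM in PB 2 and at most 0.0197 CPM elsewhere. The known Rps20 transcript measured 316.5, 335.7 and 303.9 CPM in controls and 295.9, 319.9 and 298.6 CPM in PB. From known transcripts alone the log2 fold change of the gene was -0.071 ± 0.054. Without PB 3 the gene sum had an adjusted p of 0.096.

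Rps27a, which encodes ubiquitin fused to a small subunit protein, measured 347.0, 363.6 and 341.4 CPM in controls and 256.7, 274.2 and 383.4 CPM in PB, a log2 fold change of -0.20 ± 0.15. PB 1 and PB 2 lay below every control and PB 3 above every control. Its main transcript, MSTRG.2288.2, retains introns and held 247.0, 270.8 and 267.1 CPM in controls and 98.2, 158.2 and 350.4 CPM in PB. The known transcripts alone went the other way, at 1.16 ± 0.79 on the log2 scale.

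Rpl41, the shortest ribosomal protein, was divided differently by transcript in different pools. The gene sum was 699.2, 622.1 and 642.4 CPM in controls and 641.7, 839.4 and 638.4 CPM in PB, a log2 fold change of 0.11 ± 0.12, with PB 2 above all other pools and a mean CV of 11.2%. Its known transcript was at 0 in control 1 and at 80.3 CPM in control 2, and at 524.7 CPM in control 3 and 558.5, 750.5 and 552.8 CPM in PB. In control 1 the counts stood in MSTRG.2075.5, which retains introns, with 658.9 CPM against 57.4 to 95.1 CPM in the other pools. In control 2 they stood in MSTRG.2075.2, with 280.3 CPM, and in MSTRG.2075.1, with 182.3 CPM. Rpl23a moved likewise from MSTRG.2889.1, with 323.4 to 361.5 CPM in 5 pools and 0.789 CPM in PB 1, to MSTRG.2889.3, with 376.8 CPM in PB 1.

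In Rpl7a, the member with the lowest p, the counts were spread over unlike transcripts. MSTRG.9798.5, which retains introns, held 269.3 CPM in control 3 and 36.6 CPM or less in every other pool. MSTRG.9798.2 held 72.0 CPM in control 1 and was at 0 elsewhere, and MSTRG.9798.1 held 10.8 to 61.5 CPM in controls and 48.7 to 129.9 CPM in PB. Its known transcripts gave a log2 fold change of -3.06 ± 1.54, with 45.1, 95.6 and 1.02 CPM in controls and 1.32, 3.56 and 12.2 CPM in PB, so that the groups overlapped.

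Rpl29, Rpl15 and Rpl21 varied as genes as well as by transcript. Rpl29 measured 96.1, 165.5 and 9.54 CPM in controls and 22.8, 69.3 and 11.3 CPM in PB, the lowest log2 fold change of all members at -1.39 ± 1.02, with groups that overlapped fully. Rpl15 measured 306.3, 388.7 and 550.0 CPM against 292.3, 578.7 and 396.6 CPM, with a log2 fold change of 0.026 ± 0.30. Rpl21 measured 65.0, 160.4 and 136.8 CPM against 128.6, 130.5 and 52.7 CPM, with a log2 fold change of -0.22 ± 0.44. Ribosomal protein genes have near-identical processed copies, and how reads shared with such copies were counted was not tested here.

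**Figure D5:**
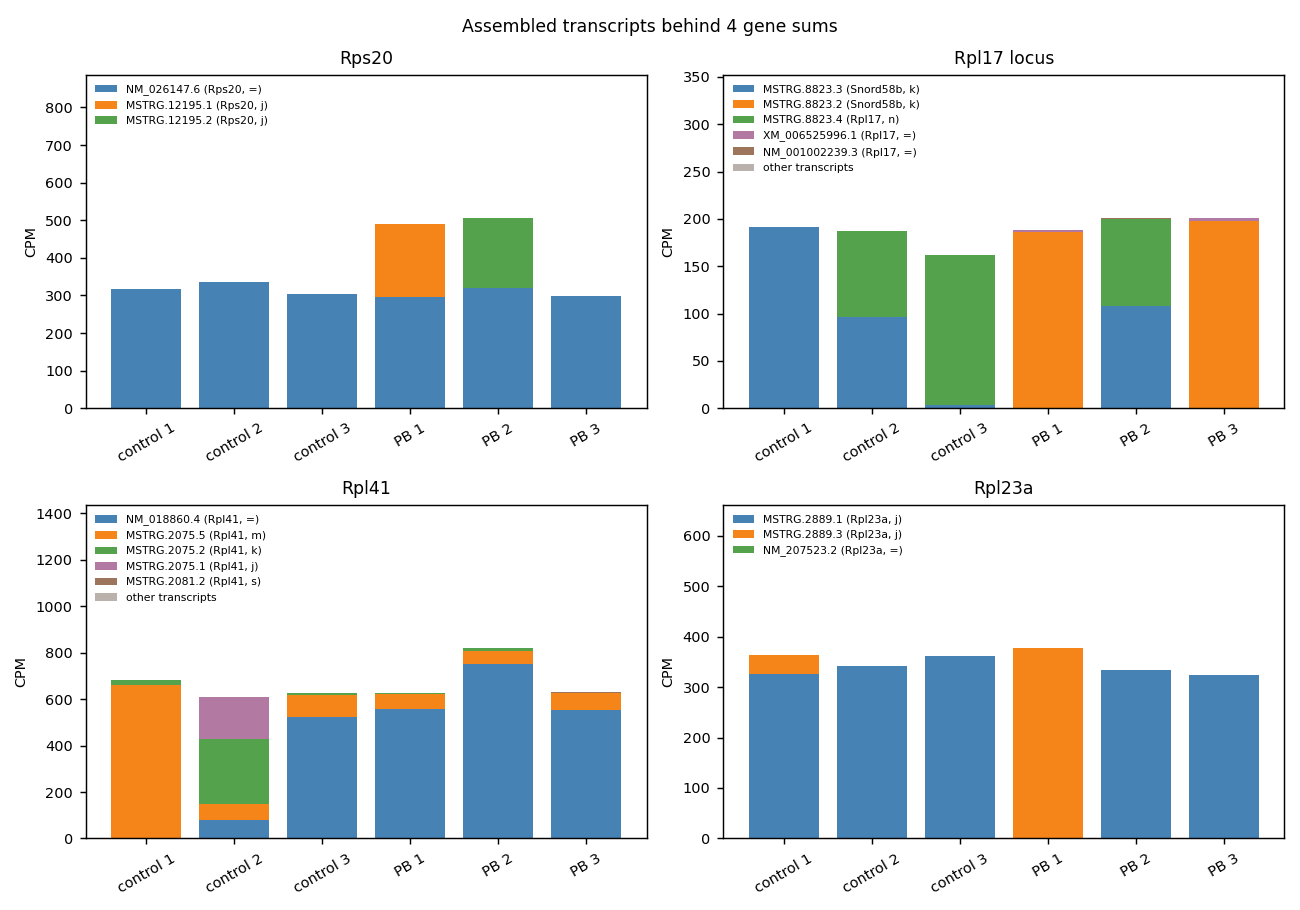
Assembled transcripts behind the sums of Rps20, the Rpl17 locus (with the transcripts named Snord58b), Rpl41 and Rpl23a, as stacked CPM in each of the 6 pools from 0; the letter after each name is the class of the transcript, = for a known one. The extra segments of Rps20 stand in PB 1 (193.2 CPM) and PB 2 (187.3 CPM), and the whole Rpl17 locus stays level while its segments change between pools.

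Across the transcripts of all members, 192 of 223 passed the filter, and edgeR called 0 of them, where 0.0332% of all 51227 transcripts tested were called. At an unadjusted p under 0.05 there were 4, where 3.56% of all transcripts passed. These 4 were transcripts of Rpl34, Rplp1, Rpl3l and Rpl18, all lower in PB. The common coefficient of variation between pools in the edgeR fit was 98.41% for transcripts and 20.94% for gene sums. With this spread, 0 calls do not show that the transcripts were unchanged. DESeq2's Wald test called 2 member transcripts, where it called 1.47% of all transcripts fitted (1172). The first, of Rpl15 (MSTRG.5324.5), had 469, 1 and 7784 counts in controls and 0 in every PB pool, with a DESeq2 adjusted p of 0.0021, and did not pass the filter for edgeR. The second, of Rpl3l (XM_011246569.2), had 36, 27 and 13 counts in controls and 1, 0 and 0 in PB, with an adjusted p of 0.000917 by DESeq2 and 0.541 by edgeR. The sum of the Rpl3l gene did not separate the groups. The transcript MSTRG.8823.2 of the Rpl17 locus, which DESeq2 called as well, is named Snord58b and is not counted among the 2.

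Counts that stood in a transcript in some pools and were nearly absent from it in others were found in these genes and in the whole assembly. Of 151 member transcripts with at least 1000 counts in a pool, 27 (17.9%) had at most 3 counts in another pool, against 17.1% of all 20602 such transcripts, a difference that was not tested. They came from 17 genes. The median absolute log2 fold change was 0.093 over the tested member transcripts and 0.035 over the gene sums. Known transcripts held 89.4% to 92.7% of the members' counts, and transcripts on the opposite strand, from 34 genes, held 0.0475% to 0.0971%.

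Ribosomal proteins whose symbols the rule does not match gave like values. Of the 6 tested, among them Rpsa, Fau, Rpl36al, Rack1 and Rps27rt, 0 were called and 6 had a lower mean in PB, with a median log2 fold change of -0.051 and extremes at Rps27rt (-0.13 ± 0.070) and Rack1 (-0.015 ± 0.057). Rpsa, a small subunit protein at 1909.0 CPM ± 82.9 in controls and 1856.2 CPM ± 14.2 in PB, was the most abundant of them. Of 77 mitochondrial ribosomal protein genes, which serve the separate ribosome of mitochondria, 0 were called, 53 were lower and the median was -0.047. At an unadjusted p under 0.05 there were 8, all lower in PB, the lowest p being that of Mrps24 with 35.2 CPM ± 1.37 and 31.3 CPM ± 0.282 (edgeR adjusted p = 0.888). The other 7 were Mrpl12, Mrpl16, Mrpl22, Mrpl34, Mrpl38, Mrps26 and Mrps36, with log2 fold changes from -0.13 to -0.19, and over all genes 4.46% passed. The extremes of the list were Mrps21 (-0.20 ± 0.14) and Mrpl48 (0.10 ± 0.076). PB pools were all below the control pools in 16 of the 77, where 5.61% of all genes were, and all above them in 4, where 5.1% were.

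Other mRNAs with a TOP motif, such as the elongation factors Eef1a1 and Eef2, had 8 of 15 genes below 0, a median log2 fold change of -0.0011 and 0 called. The extremes were Eef1b2 (-0.11 ± 0.072) and Tpt1 (0.052 ± 0.065). Eef1a1 measured 10587.5 CPM ± 277.2 in controls and 10892.9 CPM ± 68.8 in PB. Of the 17 genes of translation control, including Mtor, Larp1 and Myc, 0 were called and 0 had an unadjusted p under 0.05 by edgeR. Mtor was at 117.3 CPM ± 11.1 and 117.6 CPM ± 12.3, and Larp1 at 247.5 CPM ± 11.8 and 242.4 CPM ± 21.9. The extremes of this list were Max, with a log2 fold change of -0.31 ± 0.33, and Larp4, with 0.18 ± 0.099.

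Genes that build the ribosome were also without a call. Of 14 genes of RNA polymerase I, which transcribes the rRNA precursor, 9 were below 0, and Polr1d (log2 fold change -0.14 ± 0.052) and Taf1c (-0.14 ± 0.057) had an unadjusted p under 0.05, both with an edgeR adjusted p of 0.888. Taf1a was the highest (0.22 ± 0.16). Of 39 assembly factors 27 were below 0, and Rrp9 (-0.19 ± 0.068) and Gnl3 (-0.15 ± 0.054) had an unadjusted p under 0.05, again with an adjusted p of 0.888. Heatr1 was the highest (0.11 ± 0.15). Of 8 core proteins of snoRNA particles 7 were below 0, with a median log2 fold change of -0.081 and extremes at Nhp2 (-0.13 ± 0.063) and Nhp2l1 (0.054 ± 0.10). Nop58, one of these core proteins, had 134.4 CPM ± 4.23 in controls and 126.1 CPM ± 2.89 in PB. Of 6 dedicated chaperones of ribosomal proteins 4 were below 0, Tsr2, the partner of Rps26, being the lowest with -0.26 ± 0.18 and Pdcd2l the highest with 0.054 ± 0.13.

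Marker lists gave the makeup of the pools in which the members were measured. The 10 pregranulosa markers summed to 2042 to 2240 CPM in controls and 2010.9 to 2260.3 CPM in PB, and the 6 Sertoli markers to 36.1 to 51.8 CPM and 33.3 to 40.0 CPM. The extremes were Wnt4 (log2 fold change -0.081 ± 0.058) and Kitl (0.086 ± 0.073) for pregranulosa cells, and Dmrt1 (-0.52 ± 0.20) and Fgf9 (0.30 ± 0.19) for the Sertoli list. Dmrt1, like the germ cell marker Pou5f1, stood high only in controls 1 and 3, at 16.9 and 16.6 CPM against 9.41 to 10.5 CPM. Which cells its mRNA came from was not tested. Of the 10 germ cell markers 7 had a lower and 3 a higher mean in PB, and their sum was 943.4 CPM ± 145.9 in controls and 945.8 CPM ± 229.8 in PB. Their extremes were Pou5f1 (-0.58 ± 0.20) and Sycp3 (0.34 ± 0.28). Kit, Dppa3, Pou5f1 and Dmrt1 had an unadjusted p under 0.05 by edgeR, all lower in PB with an adjusted p of 0.888. Summed means in controls and PB were 5509.7 CPM ± 378.3 and 5370.6 CPM ± 360.6 for 6 interstitial markers, 334.5 CPM ± 18.9 and 318.4 CPM ± 9.36 for 6 endothelial markers and 54.4 CPM ± 2.48 and 51.8 CPM ± 5.19 for 6 macrophage markers. They were 154.0 CPM ± 6.65 and 150.2 CPM ± 10.1 for 6 mesonephric markers and 55.7 CPM ± 3.07 and 45.8 CPM ± 14.9 for 6 adrenal markers, of which Cyp11b1 and Cyp21a1 were at or near 0. Their extremes were Dcn (-0.20 ± 0.16) and Nr2f2 (0.099 ± 0.12), Emcn (-0.17 ± 0.079) and Kdr (0.055 ± 0.060), Adgre1 (-0.18 ± 0.10) and C1qa (0.037 ± 0.094), Cdh16 (-1.26 ± 0.68) and Pax8 (0.056 ± 0.15), and Hsd3b1 (-0.41 ± 0.37) and Star (0.13 ± 0.15), in that order of the lists.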

How the data were processed

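RNA of E15.5 ovary pools was measured by strand-specific RNA-seq in 3 control and 3 PB pools. The authors aligned reads to mm10 with HISAT2 2.1.0, built and merged a transcriptome with StringTie 1.3.5 against RefSeq, and deposited raw counts per transcript as written by prepDE, which derives whole numbers from coverage. Versions are from the submitters' processing notes and the methods. The deposited table of the authors' comparison holds fold changes and p-values from DESeq2 1.30.0, which were not used, and 6 columns of normalized values per pool, also not used; gene names, positions and class codes were taken from it.

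Counts were summed over the transcripts of a gene name (1493 unnamed transcripts were left out) and tested with edgeR 4.0.16 (quasi-likelihood, TMM, filterByExpr with at least 10 counts and 15 in total, Benjamini-Hochberg over all genes or transcripts), in R 4.3.3. The SE is the log2 fold change divided by the square root of F. TPM was computed from the counts and exon lengths. The edgeR procedure was also run on simulated gene sums, with the same dispersion for every gene. Transcript counts were not simulated. The members and lists were chosen with earlier results of these data known. Genes named with values were those of the stalk, 5S, ubiquitin fusion, PCR normalization (Rpl37a and Rplp0), X-linked and paralogue lists, the 5 highest per length, the 5 highest and 5 lowest fold changes, members with an unadjusted p under 0.05 and members with a called transcript, and in the other lists the extremes and genes with an unadjusted p under 0.05. Alternatives were DESeq2 1.42.0 (size factors and Wald test), total-count scaling, other filters and thresholds, a replicate block, known transcripts only, StringTie loci, added pseudogenes and leaving out each pool. Sequences are from RefSeq; 21 members had no matching window. Individual values of a few genes are not reported here.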

Additional observations from a re-analysis of the deposited data

How the results depend on the processing

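Calls of gene sums stayed at 0 members under all alternatives tried. The exception among transcripts was DESeq2's Wald test, with 2 calls. The median log2 fold change of the members was 0.0089 with scaling by total counts, where the median of all genes was 0.0403, and without a pool it ranged from -0.0616 (without control 3) to -0.0052 (without control 2). The log2 ratio of the share of gene counts, 0.0087, was -0.0212 from known transcripts, -0.0188 without the 10 most abundant other genes and 0.0770 as a share of TPM, and ranged from -0.0129 to 0.0216 without a pool. Of 544 values of 34 named genes, 48 reversed sign, in 20 genes; the causes were not tested.

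Known transcripts alone gave log2 fold changes of -0.3557 for Rpl10, -0.2037 for Rpl15, -0.0707 for Rps20, 1.1568 for Rps27a and 10.8997 for Rpl17, the last against controls at 0, which depends on the prior count and is no bound. Rpl17 was 0.1256 by StringTie locus and 0.1241 with the snoRNA-named transcripts, an alternative chosen after seeing the data, as was leaving out opposite-strand transcripts. Total-count scaling gave 0.0137 for Rpl11, 0.0298 for Rpl22, 0.0123 for Rpl22l1, 0.0265 for Rpl39l, 0.0002 for Rplp0 and 0.01 for Rps4l. Rpl5 was -0.0032 with DESeq2 size factors, -0.0036 with DESeq2 and -0.0045 without a filter.

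Without a pool in turn, log2 fold changes ranged from -0.0121 to 0.0386 for Rpl10, -0.1246 to 0.1943 for Rpl10l, -0.2689 to 0.2751 for Rpl15, -0.5169 to 0.1017 for Rpl21, -0.0445 to 0.0229 for Rpl22, -0.0675 to 0.0064 for Rpl22l1, -0.0117 to 0.0354 for Rpl3, -0.0909 to 0.2043 for Rpl32l, -0.2615 to 0.2463 for Rpl39l, -0.7523 to 0.0364 for Rpl3l, -0.0327 to 0.1776 for Rpl41, -0.0260 to 0.0278 for Rpl5, -0.0891 to 0.0224 for Rplp0, -0.0151 to 0.0451 for Rps27, -0.1301 to 0.0009 for Rps27l and -0.0720 to 0.0402 for Rps4l.

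Whether the replicate numbers pair the samples cannot be told from these data, since each deviation is from a mean of only 3 pools. Deviations of same-numbered pools correlated at 0.1001, 0.2236 and 0.0358. PB 1 and PB 2 each correlated best with the control of the same number, whereas PB 3 correlated best with control 1 (0.1488). With the replicate block 0 members and 0 member transcripts were called, the median was -0.0303, and 0 genes in all were called in place of 3. In that fit 2 members had an unadjusted p under 0.05, a count given without the share of all genes and not read as a result.

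Depth limits Rpl3l and Rpl32l, whose levels are under 1 CPM.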

Other observations

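The 12 pseudogenes named after members, which were left out above, took 0.0711%, 0.0714% and 0.0719% of the gene counts of controls, against 0.0741%, 0.0751% and 0.0729% for PB. The PB pools all lay above the control pools, with a log2 ratio of the means of 0.051. This was seen in the data and was not tested, and reads of a parent gene placed on its copy cannot be told apart from reads of the copy.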
